A study of Mus musculus with 8 samples.

Results

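The inhibitory receptors and the CD226 axis were followed as 7 genes, Ctla4, Lag3, Tigit, Cd160, Cd226, Cd96 and Havcr2, taken by gene name from the count tables of both experiments. They are 7 of the 16735 genes that both tables hold, out of 18114 in experiment 1 and 20397 in experiment 2, and all 7 passed the filter on low counts. Messenger RNA had been sequenced from sorted Tfh cells (T follicular helper cells) in bulk, a CD4+ subset that supports antibody responses of B cells. The donors were K/BxN mice, which develop spontaneous arthritis and here also carried a Th17 fate-mapping reporter that marks cells with a Th17 past by the fluorescent protein ZsGreen. The sources used here name neither the driver of the reporter nor the age and number of the animals. The 4 groups had 2 libraries each: ZsGreen+ Tfh cells of Peyer's patch (a lymphoid organ of the gut wall), ZsGreen− Tfh cells of Peyer's patch, ZsGreen+ Tfh cells of spleen and ZsGreen− Tfh cells of spleen. The sort gate took CXCR5+ PD-1+ cells among CD25− TCRβ+ CD4+ T cells, so PD-1 was a sort criterion and its gene, Pdcd1, is no member here.

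Inhibitory receptors are surface proteins of activated T cells that dampen signals from the T cell receptor or from costimulatory receptors. TIGIT, CD96 and CD226 form a set around shared ligands of the nectin family: CD226 is the activating receptor, TIGIT and CD96 bind some of the same ligands, and TIGIT also hinders CD226 directly. CTLA-4 competes with CD28 for CD80 and CD86, LAG-3 binds MHC class II, CD160 binds the TNF receptor family member HVEM, and TIM-3 (gene Havcr2) binds galectin-9 and other ligands. Several of these receptors are abundant on Tfh cells, which form under lasting contact with antigen.

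Library totals lay between 10009823 and 15323743 estimated counts. Replicate 1 of every group belongs to experiment 1 and replicate 2 to experiment 2, and the first principal component, with 66.4% of the variance, separated the experiments. Nothing in the labels says that replicates came from separate animals, so p-values reflect only how far these samples spread, in part perhaps for technical reasons. The defining Tfh markers were present in all 8 libraries. Cxcr5 stood at 104.6 CPM or more (counts scaled to library size, after TMM scaling) and Cd4 at 673 CPM or more. Cd8a stood at 0.871 CPM or less, and Cd8b1, the other CD8 chain gene, between 2.45 and 10.3 CPM. Levels below are in CPM, and adjusted p-values are from edgeR's quasi-likelihood test with Benjamini-Hochberg adjustment over 14418 genes and a threshold of 0.05.

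Cd226, the activating receptor of the set (chromosome 18, 89195091 to 89290354, plus strand, start and stop as the deposited tables give them, with a length of stop minus start, build mm39), was low in Peyer's patch and higher in spleen in both sorts. Peyer's patch ZsGreen+ libraries held 4.50 and 6.53 CPM, against 40.7 and 44.4 CPM in spleen ZsGreen+ libraries. Peyer's patch ZsGreen− libraries held 6.53 and 5.43 CPM, against 33.8 and 33.3 CPM in spleen ZsGreen− libraries. The groups of the 2 tissues did not overlap, and the replicates of a group lay close together although they came from different experiments. Group means were 5.51 ± 1.43 CPM in Peyer's patch ZsGreen+ cells, 5.98 ± 0.780 in Peyer's patch ZsGreen− cells, 42.6 ± 2.59 in spleen ZsGreen+ cells and 33.5 ± 0.378 in spleen ZsGreen− cells (SD, n = 2 each). In ZsGreen+ cells Cd226 fell by 2.96 ± 0.22 on the log2 scale in Peyer's patch relative to spleen (SE, adjusted p = 1.64e-05), a 7.79-fold lower level. The ZsGreen− cells gave a log2 fold change of −2.46 ± 0.22 (adjusted p = 7.09e-05), a 5.52-fold lower level. Both calls held with each of the 8 libraries left out in turn, and were lost when the experiment term was left out of the model (adjusted p = 0.470 in ZsGreen+ cells and 0.689 in ZsGreen− cells, with log2 fold changes of −2.95 and −2.48). In bulk RNA, fewer cells that express Cd226 and less Cd226 mRNA per cell cannot be told apart.

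Tigit, the inhibitory counterpart of Cd226 (chromosome 16, 43469230 to 43484510, minus strand), ran the other way between the tissues in ZsGreen+ cells. It stood at 251 and 261 CPM in Peyer's patch ZsGreen+ libraries, against 77.4 and 122 CPM in spleen ZsGreen+ libraries. The lower Peyer's patch library was above the higher spleen library, and Tigit rose by 1.42 ± 0.20 on the log2 scale (SE, adjusted p = 0.00100), with the call kept whichever library was left out. In ZsGreen− cells the levels were 175 and 298 CPM in Peyer's patch, against 113 and 226 CPM in spleen. These groups overlapped, although Peyer's patch was higher within each experiment, and the log2 fold change of 0.51 ± 0.20 did not pass (adjusted p = 0.201).

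Cd96, the other inhibitory receptor of the set, lies on the same chromosome as Tigit (45856020 to 45940615, minus strand). It stood at 138 and 324 CPM in Peyer's patch ZsGreen− libraries, against 70.7 and 160 CPM in spleen ZsGreen− libraries. The groups overlapped across experiments because experiment 2 gave higher values throughout, and within each experiment Peyer's patch was about 1 log2 unit higher (0.96 in experiment 1, 1.02 in experiment 2). The fitted log2 fold change was 0.99 ± 0.13 (SE, adjusted p = 0.000986), and the call held with any library left out. In ZsGreen+ cells Cd96 stood at 123 and 259 CPM in Peyer's patch, against 96.5 and 201 CPM in spleen, a log2 fold change of 0.36 ± 0.13 that did not pass (adjusted p = 0.0974). The order of the groups was the same in both experiments: Peyer's patch ZsGreen−, Peyer's patch ZsGreen+, spleen ZsGreen+, spleen ZsGreen−.

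**Figure D1:**
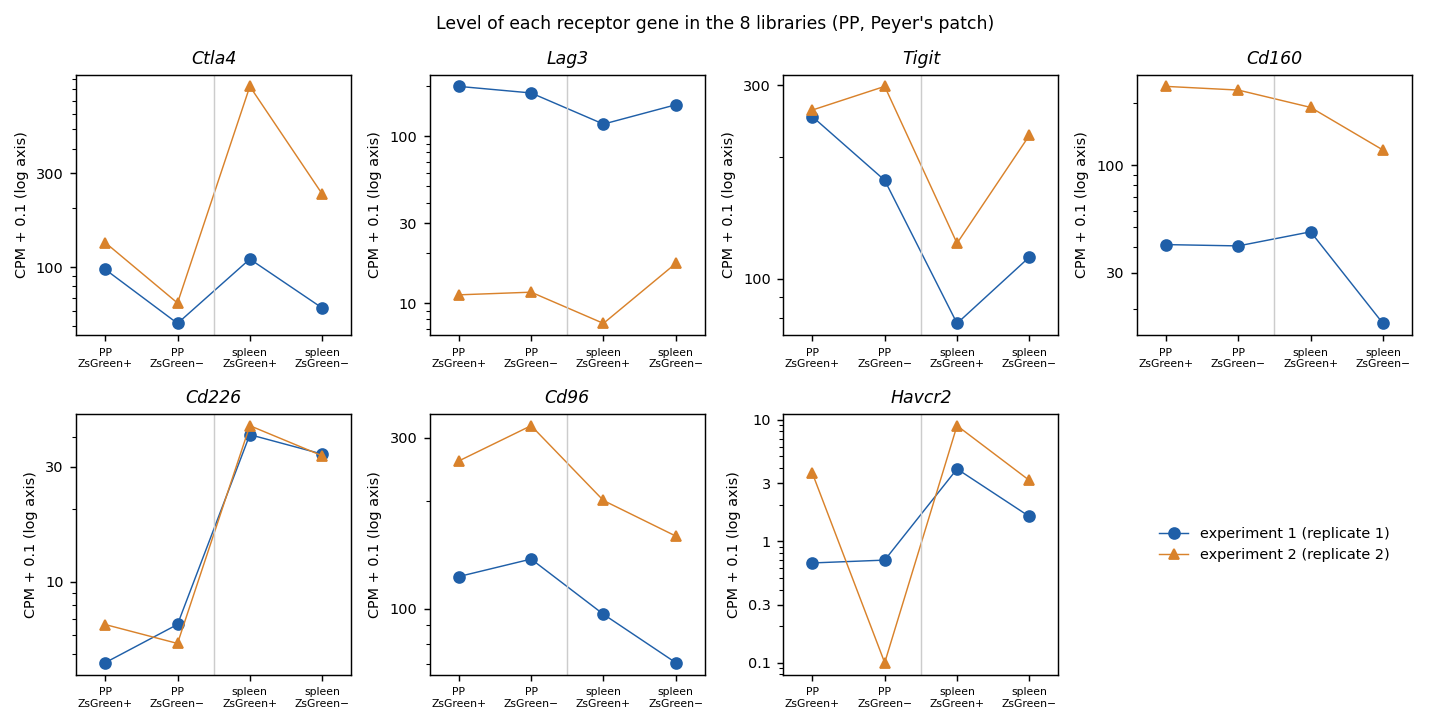
Level of each of the 7 receptor genes in the 8 libraries, as CPM + 0.1 on a log axis with its own range per gene. Points are single libraries, and lines join libraries of 1 experiment. Cd226 lies between 4.50 and 6.53 CPM in Peyer's patch and between 33.3 and 44.4 CPM in spleen, while Lag3 and Cd160 separate mainly by experiment.

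The balance of the set was described per library as the ratio of Tigit or Cd96 counts to Cd226 counts, which are not corrected for transcript length and are compared only between libraries. Tigit exceeded Cd226 55.8-fold and 39.9-fold in Peyer's patch ZsGreen+ libraries, against 1.90-fold and 2.75-fold in spleen ZsGreen+ libraries. The same ratio was 26.8 and 54.9 in Peyer's patch ZsGreen− libraries, against 3.34 and 6.78 in spleen ZsGreen− libraries. All 4 Peyer's patch libraries were above all 4 spleen libraries. Cd96 exceeded Cd226 27.4-fold and 39.6-fold in Peyer's patch ZsGreen+ libraries, against 2.37-fold and 4.52-fold in spleen ZsGreen+ libraries. In ZsGreen− cells the Cd96 ratio was 21.1 and 59.8 in Peyer's patch, against 2.09 and 4.80 in spleen, again without overlap between the tissues. In each ratio Cd226 had the larger tissue difference of the pair, and the ratios were not tested.

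**Figure D2:**
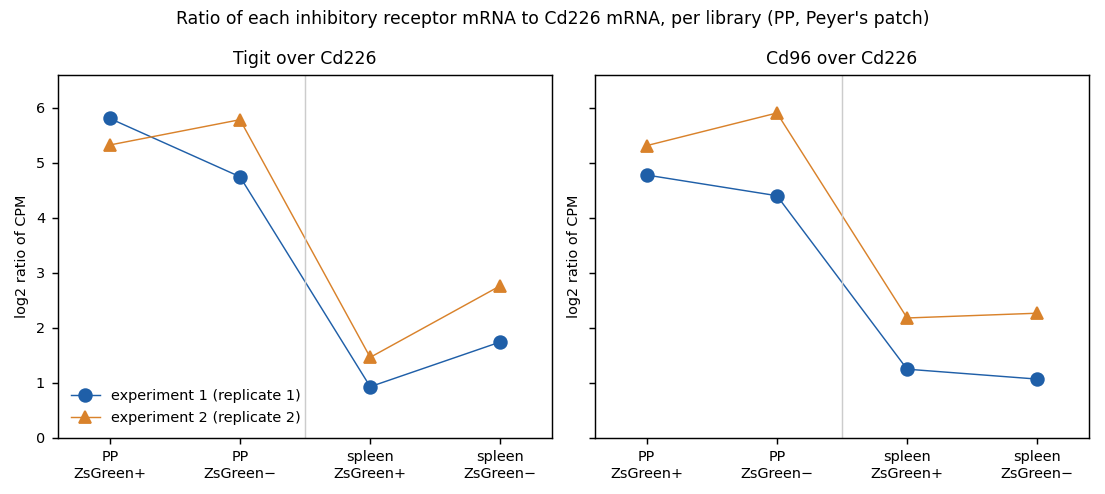
Ratio of Tigit counts (left) and Cd96 counts (right) to Cd226 counts in each library, on a log2 scale. Points are single libraries and lines join libraries of 1 experiment. The Tigit ratio lies between 26.8 and 55.8 in the 4 Peyer's patch libraries and between 1.90 and 6.78 in the 4 spleen libraries.

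Over the 7 members, 2 passed between the tissues in ZsGreen+ cells (Tigit higher, Cd226 lower in Peyer's patch), where 12.7% of all genes tested passed. In ZsGreen− cells 3 passed (Cd160 and Cd96 higher, Cd226 lower), where 5.49% of all genes tested passed. The median log2 fold change of the members was 0.06 in ZsGreen+ cells, beside 0.01 for all genes, and −0.10 in ZsGreen− cells, beside 0.00 for all genes. With so few members, these shares describe the 7 genes only. The comparisons between tissues and between sorts use the same libraries and are not independent of each other.

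Markers of other cells also differed between the tissues. Foxp3, which defines regulatory T cells, stood at 0.394 and 0.375 CPM in Peyer's patch ZsGreen+ libraries, against 12.1 and 3.17 CPM in spleen ZsGreen+ libraries. In ZsGreen− cells it stood at 4.95 and 2.33 CPM in Peyer's patch, against 34.2 and 18.1 CPM in spleen. The whole list of 5 regulatory T cell markers, of which Ikzf2 made up most, summed to 199 to 470.4 CPM in Peyer's patch ZsGreen+ cells, 235 to 283 CPM in Peyer's patch ZsGreen− cells, 83.8 to 191 CPM in spleen ZsGreen+ cells and 326 to 391 CPM in spleen ZsGreen− cells. Of the 8 CD8 T and NK cell markers, 7 were in both tables, and they summed to 48.8 and 99.8 CPM in Peyer's patch ZsGreen+ libraries, against 45.8 and 299.9 CPM in spleen ZsGreen+ libraries. In ZsGreen− cells that sum was 61.3 and 90.1 CPM in Peyer's patch, against 77.1 and 378 CPM in spleen. The markers in that sum moved in opposite directions. Klrb1c, which encodes the NK receptor NK1.1, stood at 43.7 and 59.6 CPM in Peyer's patch ZsGreen+ libraries, against 15.8 and 23.5 CPM in spleen ZsGreen+ libraries, and was higher in Peyer's patch (log2 1.40 ± 0.16, adjusted p = 0.000168). Gzmb, which encodes the cytotoxic protease granzyme B, stood at 0.506 and 14.1 CPM, against 13.2 and 98.4 CPM in the same groups, and was lower in Peyer's patch (log2 −3.18 ± 0.66, adjusted p = 0.0483). Nkg7, a cytotoxic granule gene, stood at 1.12 and 19.1 CPM in Peyer's patch ZsGreen+ libraries, against 13.1 and 163 CPM in spleen ZsGreen+ libraries, and did not pass (adjusted p = 0.0544). Markers of B cells, myeloid cells, and γδ T cells and ILC also differed between the tissues in ZsGreen+ cells. There the 8 B cell markers summed to 317 and 538 CPM in Peyer's patch, against 128 and 174 CPM in spleen, the 6 myeloid markers to 33.5 and 16.8 CPM, against 12.7 and 5.57 CPM, and the 4 measured γδ T cell and ILC markers to 100.8 and 70.4 CPM, against 310.2 and 212 CPM. In ZsGreen− cells the same sums were 342 and 671 CPM in Peyer's patch against 205 and 715 CPM in spleen for B cells, 26.1 and 16.3 CPM against 15.5 and 12.4 CPM for myeloid cells, and 65.4 and 45.4 CPM against 75.9 and 122 CPM for γδ T cells and ILC. Pax5, the B cell identity factor, was higher in Peyer's patch by 4.62 ± 0.44 in ZsGreen+ cells and 2.78 ± 0.41 in ZsGreen− cells (log2, adjusted p = 5.55e-05 and 0.00194), and Ighm and Lyz2 by 1.31 ± 0.28 and 1.89 ± 0.29 in ZsGreen+ cells (adjusted p = 0.0171 and 0.00122). Lyz2 made up most of the myeloid sum, and the other myeloid markers tested did not pass in ZsGreen+ cells. Itgax and Csf1r were higher in Peyer's patch (4.17 ± 1.48 and 0.41 ± 0.84), while Adgre1 and Fcer1g were lower (−2.96 ± 1.35 and −1.36 ± 1.05). Il7r, the IL-7 receptor gene, was lower there by a log2 value of −2.37 ± 0.31 (adjusted p = 0.00236). Cxcr5, a gene of the sort, rose in Peyer's patch relative to spleen by 2.47 ± 0.17 in ZsGreen+ cells and 1.08 ± 0.16 in ZsGreen− cells (log2, SE, adjusted p = 1.07e-05 and 0.00229). Of the same Tfh list, Sh2d1a, Bcl6 and Icos also rose in ZsGreen+ cells (1.72 ± 0.24, 1.49 ± 0.27 and 0.82 ± 0.22, adjusted p = 0.00114, 0.0111 and 0.0266). Cd3e, Cd4, Trac, Pdcd1 and Il21 did not pass there, and in ZsGreen− cells only Cxcr5 of the list passed. The part of these differences in the receptor levels was not tested.

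Between ZsGreen+ and ZsGreen− cells of spleen, Cd160 rose and Tigit fell, and these were 2 of the 7 members, where 8.62% of all genes tested passed. Cd160 encodes the HVEM-binding receptor (chromosome 3, 96706079 to 96736668, minus strand). It stood at 47.4 and 191 CPM in spleen ZsGreen+ libraries, against 17.0 and 119 CPM in spleen ZsGreen− libraries. The groups overlapped across experiments, since experiment 2 gave 5.37 times the mean level of experiment 1, but ZsGreen+ was higher in each experiment, by 1.48 and 0.69 log2 units. The fitted log2 fold change was 1.08 ± 0.18 (SE, adjusted p = 0.00333), and the call held with any library left out. Spleen ZsGreen− cells were the low group for Cd160 in both experiments. The Peyer's patch ZsGreen− libraries held 40.5 and 232 CPM, so that Cd160 rose by 1.10 ± 0.17 in Peyer's patch relative to spleen in ZsGreen− cells (adjusted p = 0.00359). That call was lost without Peyer's patch ZsGreen− replicate 2 (adjusted p = 0.0629). Between the tissues in ZsGreen+ cells the log2 fold change was 0.06 ± 0.17 (adjusted p = 0.877). A short stretch of Cd160, 2.57% of its exon bases in the GENCODE M21 annotation, overlaps Pdzk1 on the opposite strand, and in a non-directional library reads there cannot be assigned to either gene.

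Tigit stood at 77.4 and 122 CPM in spleen ZsGreen+ libraries, against 113 and 226 CPM in spleen ZsGreen− libraries. It was lower in ZsGreen+ cells within each experiment, by 0.54 and 0.88 log2 units, with overlap across experiments. The fitted difference of −0.73 ± 0.20 passed narrowly (SE, adjusted p = 0.0473). It no longer passed in 5 of the 8 fits that leave out a library, with adjusted p-values of 0.0811 without Peyer's patch ZsGreen− replicate 1, 0.0777 without Peyer's patch ZsGreen− replicate 2, 0.219 without spleen ZsGreen+ replicate 1, 0.206 without spleen ZsGreen+ replicate 2 and 0.336 without spleen ZsGreen− replicate 2. The call was also lost with RLE scaling (adjusted p = 0.0557) and without robust dispersion (0.0659). Of the other set members, Cd226 was 0.34 ± 0.19 log2 units higher and Cd96 0.39 ± 0.13 log2 units higher in spleen ZsGreen+ cells (adjusted p = 0.344 and 0.0944), and neither passed. DESeq2 called 4 members in spleen, where it called 1466 of all genes. It added Lag3 (−0.73, adjusted p = 0.0468) and Cd96 (0.42, adjusted p = 0.0140). Foxp3 fell in the same comparison by 1.90 ± 0.30 and Cxcr5 by 1.69 ± 0.17 on the log2 scale (adjusted p = 0.00292 and 0.000127), as did Ikzf2 (−1.73 ± 0.32, adjusted p = 0.0200), Trdc, the γδ T cell receptor constant gene (−2.29 ± 0.47, adjusted p = 0.0398), and Ighm (−1.39 ± 0.28, adjusted p = 0.0200). Il2ra, which encodes CD25, a marker the sort was to exclude, rose by 2.03 ± 0.39 (log2, adjusted p = 0.00880), at 20.7 and 13.6 CPM in spleen ZsGreen+ libraries against 4.97 and 3.22 CPM in spleen ZsGreen− libraries. The part of these markers in the Tigit and Cd160 levels was not tested.

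In Peyer's patch, 0 of the 7 members passed between ZsGreen+ and ZsGreen− cells, where 0.437% of all genes tested passed. None had an unadjusted p under 0.05 in edgeR (8.13% of all genes did). DESeq2 called 0 members, where it called 139 of all genes. Tigit stood at 251 and 261 CPM in ZsGreen+ libraries, against 175 and 298 CPM in ZsGreen− libraries, and its direction differed between the experiments (0.52 and −0.19 log2 units). Cd160 was almost level, at 41.1 and 242 CPM in ZsGreen+ libraries, against 40.5 and 232 CPM in ZsGreen− libraries (0.04 ± 0.17 log2, adjusted p = 0.975). Cd226 differed by −0.16 ± 0.23 and Cd96 by −0.25 ± 0.13 log2 units (adjusted p = 0.921 and 0.683). The median of the 7 log2 fold changes was 0.06, beside 0.00 for all genes.

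The difference of the ZsGreen effect between the tissues, Peyer's patch minus spleen, was tested for each member and 0 of 7 passed, where 0.0971% of all genes tested passed. At an unadjusted p under 0.05 there were 4 in edgeR (Lag3, Tigit, Cd160 and Cd96), beside 8.48% of all genes. DESeq2 called 2 members, where it called 143 of all genes. These were Cd160 (−1.08, adjusted p = 0.0267) and Cd96 (−0.67, adjusted p = 0.0242). In edgeR the difference was −1.04 ± 0.24 log2 units for Cd160 (adjusted p = 0.165), −0.64 ± 0.18 for Cd96 (0.278), 0.91 ± 0.28 for Tigit (0.328) and 0.77 ± 0.30 for Lag3 (0.495). The spleen calls of Cd160 and Tigit are not shown by this test to differ from Peyer's patch.

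**Figure D3:**
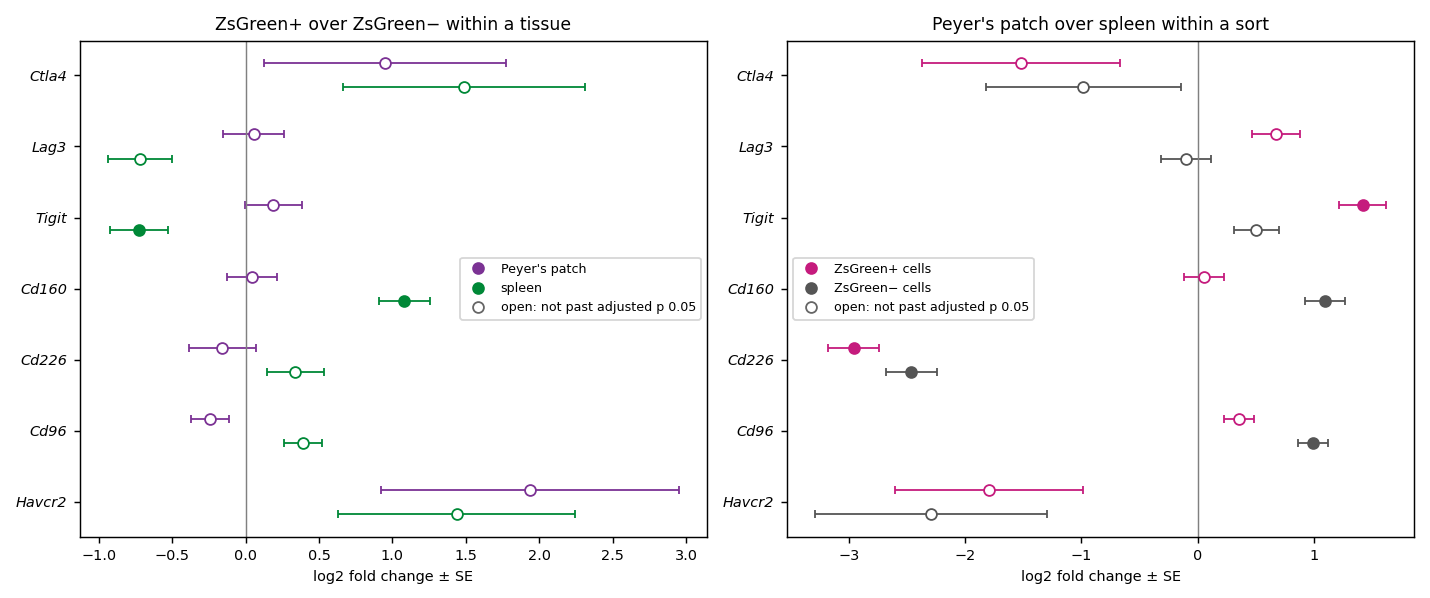
Fitted log2 fold changes of the 7 members with their SE, for ZsGreen+ over ZsGreen− cells in each tissue (left) and for Peyer's patch over spleen within each ZsGreen class (right). Filled points passed an adjusted p of 0.05. On the right, Cd226 stands at −2.96 in ZsGreen+ and −2.46 in ZsGreen− cells, and Tigit at 1.42 in ZsGreen+ cells.

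Ctla4, the receptor that competes with CD28 (chromosome 1, 60926159 to 60954992, plus strand), had 1 library far above the others. In spleen it stood at 110 and 828 CPM in ZsGreen+ libraries, against 61.9 and 235 CPM in ZsGreen− libraries. In Peyer's patch it stood at 97.3 and 133 CPM in ZsGreen+ libraries, against 51.7 and 65.6 CPM in ZsGreen− libraries. ZsGreen+ was higher in each tissue within each experiment, and the Peyer's patch groups did not overlap. The log2 fold changes of 1.49 ± 0.83 in spleen and 0.95 ± 0.82 in Peyer's patch did not pass (adjusted p = 0.426 and 0.869) in the model that shares 1 estimate of spread over all groups. Fitted on the 4 libraries of each tissue alone, both passed, at 1.34 ± 0.25 in spleen (adjusted p = 0.0207) and 0.97 ± 0.16 in Peyer's patch (adjusted p = 0.00526). These smaller fits have fewer residual degrees of freedom than the main model. The library far above the others was spleen ZsGreen+ replicate 2. Between the tissues the log2 fold changes of −1.52 ± 0.85 in ZsGreen+ and −0.98 ± 0.84 in ZsGreen− cells did not pass (adjusted p = 0.378 and 0.679).

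Lag3, the MHC class II receptor (chromosome 6, 124881324 to 124888669, minus strand), differed far more between experiments than between groups. It averaged 163 CPM in experiment 1, against 11.8 CPM in experiment 2, a 13.8-fold difference. In spleen it stood at 118 and 7.46 CPM in ZsGreen+ libraries, against 154 and 17.2 CPM in ZsGreen− libraries. In Peyer's patch it stood at 198 and 11.1 CPM in ZsGreen+ libraries, against 181 and 11.5 CPM in ZsGreen− libraries. Spleen ZsGreen+ cells were the lowest group in both experiments, but −0.72 ± 0.22 log2 units against spleen ZsGreen− cells did not pass (adjusted p = 0.0727), nor did 0.68 ± 0.21 for Peyer's patch over spleen in ZsGreen+ cells (adjusted p = 0.0624). The sources used here do not say what differed between the experiments, so the experiment and the preparation of its libraries cannot be told apart. The experiments also moved Cd160 in the opposite direction, at 196 CPM on average in experiment 2 against 36.5 CPM in experiment 1, whereas Cd226 averaged 22.4 CPM in experiment 2 and 21.4 CPM in experiment 1.

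Havcr2, which encodes TIM-3 (chromosome 11, 46345762 to 46372083, plus strand), was the lowest member. It stood at 0.562 and 3.53 CPM in Peyer's patch ZsGreen+ libraries and at 0.599 and 0 CPM in Peyer's patch ZsGreen− libraries, against 3.83 and 8.83 CPM in spleen ZsGreen+ libraries and 1.50 and 3.07 CPM in spleen ZsGreen− libraries. The count of 0 in Peyer's patch ZsGreen− replicate 2 allows a level of up to 0.332 CPM (3 counts, counting error only). Counts behind these values ran from 0 to 103 per library, and no comparison passed (adjusted p from 0.201 to 0.967). Fitted on the 4 ZsGreen+ libraries alone, a log2 fold change of −1.91 ± 0.47 for Peyer's patch over spleen passed (adjusted p = 0.0225). That smaller fit has fewer residual degrees of freedom than the main model.

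Per kilobase of exon (GENCODE M21), which allows levels to be compared between genes, Tigit was the most abundant member in 7 of the 8 libraries, from 84.2 to 324 CPM per kilobase. The exception was spleen ZsGreen+ replicate 2, where Ctla4 stood at 355 CPM per kilobase and Tigit at 133. Cd226 stood between 0.920 and 1.34 CPM per kilobase in Peyer's patch and between 6.80 and 9.08 in spleen, below Tigit and Cd96 in every library. Havcr2 was lowest in all 8 libraries. Cd96 lay between 32.4 and 149 CPM per kilobase. 

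Promoter sequence was read for the members that passed a test and have an entry in the RefSeq promoter table, which covers 250 bases before to 50 after a transcript start in build GRCm38.p6, unlike the mm39 coordinates above. Of the 7 members, 5 matched, and Lag3 and Cd226 have no entry. Tigit and Cd96, each higher in Peyer's patch in 1 of the sorts, and both starts of Cd160 are shown 5′ to 3′ on the strand of the gene, with matches to 5 short motifs in capitals. The motifs, searched on both strands, were AGGTCA (a half-site of ROR factors, in 16.3% of 32851 promoters of this length), TGANTCA (AP-1, 7.81%), TGTGGT (RUNX, 16.8%), GGTGTG (T-box, 19.0%) and CTTTGA (TCF-1, 16.0%).
Tigit, chr16:43664135-43664434, minus strand: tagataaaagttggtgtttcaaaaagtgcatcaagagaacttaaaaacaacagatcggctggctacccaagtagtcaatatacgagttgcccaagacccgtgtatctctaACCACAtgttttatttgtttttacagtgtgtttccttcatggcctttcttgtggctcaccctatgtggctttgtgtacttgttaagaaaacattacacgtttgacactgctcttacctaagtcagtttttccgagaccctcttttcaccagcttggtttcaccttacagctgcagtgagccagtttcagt
Cd96, chr16:46120199-46120498, minus strand: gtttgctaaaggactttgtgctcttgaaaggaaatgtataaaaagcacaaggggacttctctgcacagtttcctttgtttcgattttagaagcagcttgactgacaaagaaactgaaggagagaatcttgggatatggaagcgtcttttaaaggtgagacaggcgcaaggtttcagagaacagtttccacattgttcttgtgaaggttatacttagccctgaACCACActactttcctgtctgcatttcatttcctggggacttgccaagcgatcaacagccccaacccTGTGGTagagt
Cd160 first start, chr3:96829302-96829601, minus strand: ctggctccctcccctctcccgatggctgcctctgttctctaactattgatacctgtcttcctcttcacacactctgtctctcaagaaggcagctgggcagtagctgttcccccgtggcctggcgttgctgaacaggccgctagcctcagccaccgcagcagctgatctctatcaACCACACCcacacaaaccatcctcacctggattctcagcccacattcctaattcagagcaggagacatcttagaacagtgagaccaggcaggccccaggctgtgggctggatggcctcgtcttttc
Cd160 second start, chr3:96814472-96814771, minus strand: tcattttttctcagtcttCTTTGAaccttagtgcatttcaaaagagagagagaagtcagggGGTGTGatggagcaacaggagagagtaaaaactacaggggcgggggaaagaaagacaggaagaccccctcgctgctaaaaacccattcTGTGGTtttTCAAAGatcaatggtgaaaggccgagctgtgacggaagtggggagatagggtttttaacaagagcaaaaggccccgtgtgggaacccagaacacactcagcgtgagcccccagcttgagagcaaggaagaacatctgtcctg
The RUNX letters occurred in all 4 windows, at −140 in Tigit, at −28 and 40 in Cd96, and at −76 and −101 in the 2 Cd160 windows (positions from the start, upstream negative). The end of the Tigit window was found in 0 Tigit transcripts of GENCODE M21, unlike the other windows shown. The position in Tigit therefore rests on the RefSeq start alone. In the first Cd160 window the RUNX and T-box matches overlap (−76 and −74). A match says only that these letters are present.

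Among the genes with the pattern most like a called member over the 8 libraries, each centred on its experiment's mean of log2 CPM, Cd226 was closest to Emp3 (r = 0.998), Crip1 (0.995) and Epsti1 (0.995). Tigit was closest to Cbx6 (r = 0.995), Dipk2a (0.989) and Pou2af1 (0.985). Cd160 was closest to Sugp1 (r = 0.970), Trbv14 (0.969) and Ndufb9 (0.969), and Cd96 to Hspb11 (0.980), Gpr107 (0.976) and Cfap298 (0.976). The correlations were searched over 10214 genes, share the same 8 libraries and are descriptive. Between members, r was −0.90 for Tigit with Cd226, −0.86 for Cd226 with Cd96 and 0.81 for Cd160 with Cd96. Cfap298 shares 44.2% of its exon bases with a transcript on the opposite strand, so its counts are uncertain. Smaller shares limit other named genes: Ndufb9 shares 19.5% and Cbx6 5.31% with another gene on the same strand, and Gpr107 2.36% with an opposite-strand transcript.

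Other genes of the pathway, from 4 lists, were read in the same tests. Of the 15 other inhibitory receptors, 3 fell in Peyer's patch relative to spleen in ZsGreen+ cells (Klrg1, Lilrb4a and Lair1) and 1 in ZsGreen− cells (Klrg1), with 0 higher. These are 20% and 6.67% of the list, where 12.7% and 5.49% of all genes passed, and the median log2 fold change of the list in ZsGreen+ cells, 0.32, was opposite in sign to its calls. Klrg1, a receptor of terminally differentiated T and NK cells, stood at 0 and 0.150 CPM in Peyer's patch ZsGreen+ libraries, against 2.45 and 3.86 CPM in spleen ZsGreen+ libraries (adjusted p = 0.00306, held with any library left out). Lair1, a collagen receptor, stood at 0.337 and 0.825 CPM in Peyer's patch, against 1.44 and 5.14 CPM in spleen, in ZsGreen+ cells. The Lair1 call was lost without Peyer's patch ZsGreen+ replicate 1 or 2 or spleen ZsGreen+ replicate 2 (adjusted p up to 0.420), the Lilrb4a call between tissues without any 1 of the 4 spleen libraries (up to 0.0946), and the Klrg1 call in ZsGreen− cells in 5 of the 8 fits that leave out a library (up to 0.216). Lilrb4a rose in spleen ZsGreen+ over ZsGreen− cells by 4.24 ± 0.49 (log2, SE, adjusted p = 0.00684), the only list member called there (6.67% of the list, beside 8.62% of all genes), at 33.5 and 157 CPM in ZsGreen+ libraries against 1.98 and 7.51 CPM in ZsGreen− libraries. That call was lost without spleen ZsGreen+ replicate 1, spleen ZsGreen− replicate 1 or spleen ZsGreen− replicate 2 (adjusted p up to 0.150), and 35.3% of Lilrb4a exon bases are shared with another gene on the same strand. Between the sorts of Peyer's patch 0 of the 15 passed in edgeR, where 0.437% of all genes passed. At an unadjusted p under 0.05 there was 1, beside 8.13% of all genes, and DESeq2 called 1, beside 139 of the 14418 genes.

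The list of ligands and partner receptors had 18 genes, 17 of them in both tables and 15 tested. Of these, 4 passed in ZsGreen+ and 4 in ZsGreen− cells between the tissues and 4 between the sorts of spleen (26.7% of the list each, where 12.7%, 5.49% and 8.62% of all genes passed), and 1 passed between the sorts of Peyer's patch (6.67%, beside 0.437% of all genes). Tnfrsf14, which encodes the CD160 ligand HVEM, stood at 66.7 and 33.3 CPM in Peyer's patch ZsGreen+ libraries, against 27.4 and 12.9 CPM in spleen ZsGreen+ libraries. It rose by 1.33 ± 0.15 in Peyer's patch in ZsGreen+ cells (log2, SE, adjusted p = 0.000200, held with any library left out) and by 0.59 ± 0.15 in ZsGreen− cells (adjusted p = 0.0440, lost in 7 of 8 such fits). In spleen it fell by 0.72 ± 0.16 in ZsGreen+ relative to ZsGreen− cells (adjusted p = 0.0145), a call lost without spleen ZsGreen+ replicate 1 or 2 or spleen ZsGreen− replicate 1. Lgals9, which encodes the TIM-3 ligand galectin-9, fell in ZsGreen+ relative to ZsGreen− cells in both tissues, by 0.85 ± 0.14 in Peyer's patch (adjusted p = 0.0206) and by 0.94 ± 0.14 in spleen (adjusted p = 0.00179). The spleen call held with any library left out, and the Peyer's patch call was lost without Peyer's patch ZsGreen+ replicate 1 or either ZsGreen− replicate (adjusted p up to 0.245). Pvr, which encodes the shared ligand of TIGIT, CD96 and CD226, stood at 15.2 and 8.74 CPM in spleen ZsGreen+ libraries, against 24.1 and 25.6 CPM in spleen ZsGreen− libraries. It fell by 1.09 ± 0.23 (log2, adjusted p = 0.0136), and Crtam, a receptor for the related ligand CADM1, by 2.01 ± 0.36 (adjusted p = 0.00549). Both calls were lost without either replicate 2 of spleen (adjusted p up to 0.141 and 0.0847). Between the tissues, Icos rose and Cd86 and Lgals3 fell in Peyer's patch in ZsGreen+ cells, while Cd274, Crtam and Cd80 fell in ZsGreen− cells. The calls of Icos, Cd86 and Lgals3 were lost in 4, 8 and 6 of the 8 fits that leave out a library, and those of Cd274, Crtam and Cd80 without either Peyer's patch ZsGreen− replicate or spleen ZsGreen− replicate 2. Nectin2 and Nectin3 were at 0.653 CPM or less in every library.

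**Figure D4:**
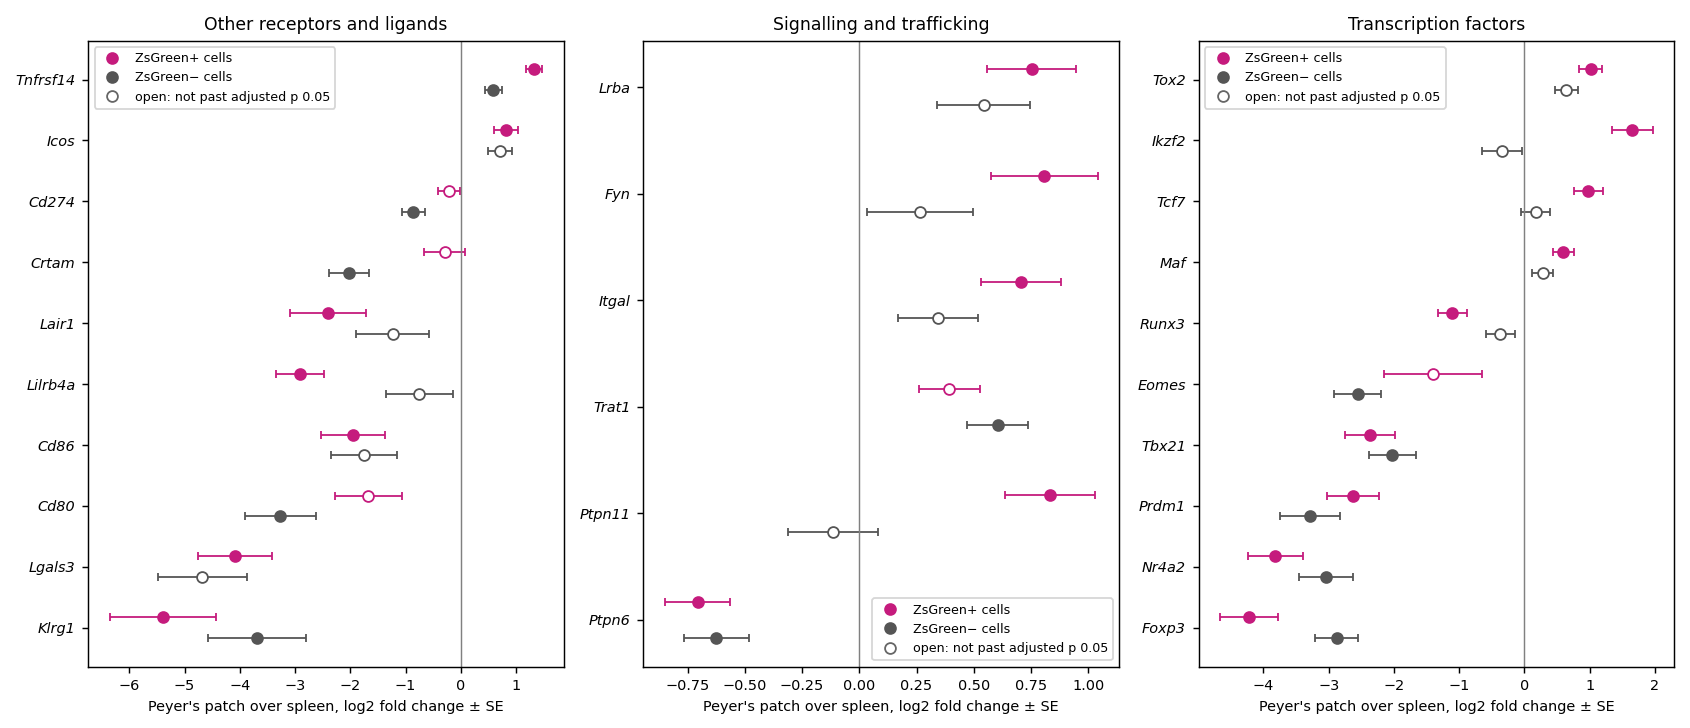
Log2 fold changes with their SE for Peyer's patch over spleen, in ZsGreen+ and ZsGreen− cells, for the pathway genes that passed in at least 1 sort. Filled points passed an adjusted p of 0.05. Tnfrsf14 stands at 1.33 in ZsGreen+ cells and Foxp3 at −4.22.

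Among the 18 signalling and trafficking partners, all tested, 4 rose in Peyer's patch in ZsGreen+ cells and 1 fell, or 27.8% of the list where 12.7% of all genes passed. In ZsGreen− cells 2 passed (11.1%, beside 5.49% of all genes), and in spleen 1 (5.56%, beside 8.62%). The genes that rose in ZsGreen+ cells were Ptpn11, the phosphatase SHP-2 (0.83 ± 0.20), Fyn, a Src family kinase (0.81 ± 0.23), Lrba, which spares CTLA-4 from degradation (0.75 ± 0.19), and Itgal, the LFA-1 alpha chain, which associates with CD226 (0.71 ± 0.18). Ptpn6, the phosphatase SHP-1, fell by 0.71 ± 0.14 in ZsGreen+ cells and by 0.62 ± 0.14 in ZsGreen− cells, where Trat1 rose (0.60 ± 0.13). Between the sorts of Peyer's patch 0 passed in edgeR, where 0.437% of all genes passed. At an unadjusted p under 0.05 there were 2, beside 8.13% of all genes, and DESeq2 called 1, beside 139 of the 14418 genes. Ptpn11 fell by 0.93 ± 0.20 in spleen ZsGreen+ relative to ZsGreen− cells and was the only list member edgeR called there. None of the 8 edgeR calls of this list held in every fit that leaves out a library.

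Of 18 transcription factors linked to inhibitory receptor expression, all tested, 2 fell in ZsGreen+ relative to ZsGreen− cells of Peyer's patch (Foxp3, the regulatory T cell factor, and Eomes, a T-box factor), or 11.1% of the list where 0.437% of all genes passed. In spleen 6 fell and 1 rose, or 38.9% where 8.62% of all genes passed. Eomes stood at 0.745 and 0.0857 CPM in spleen ZsGreen+ libraries, against 38.8 and 11.2 CPM in spleen ZsGreen− libraries (adjusted p = 2.21e-05). Tcf7, which encodes TCF-1, fell by 1.25 ± 0.22 and Tox by 0.75 ± 0.18, and Tox2 and Ikzf2 also fell, while Batf rose by 0.60 ± 0.16. Between the tissues in ZsGreen+ cells 4 rose in Peyer's patch (Ikzf2, Tox2, Tcf7 and Maf) and 5 fell (Runx3, Tbx21, Prdm1, Nr4a2 and Foxp3), and in ZsGreen− cells 5 fell (Tbx21, Eomes, Foxp3, Nr4a2 and Prdm1), or 50% and 27.8% of the list where 12.7% and 5.49% of all genes passed. Prdm1, which encodes Blimp-1, stood at 1.24 and 2.10 CPM in Peyer's patch ZsGreen+ libraries, against 9.96 and 10.5 CPM in spleen ZsGreen+ libraries. Nr4a2, an immediate early nuclear receptor, stood at 1.12 and 2.40 CPM in Peyer's patch ZsGreen+ libraries, against 12.2 and 42.1 CPM in spleen ZsGreen+ libraries. The spleen call of Tcf7 was lost without spleen ZsGreen+ replicate 2, and those of Tox and Batf in 4 and 3 of the 8 such fits. In spleen, Tox2 passed in only 2 of these 8 fits and Ikzf2 in 6. The Peyer's patch sort calls of Foxp3 and Eomes passed in 5 and 6, and the tissue call of Maf in 3. The tissue calls of Ikzf2, Tox2, Tcf7 and Runx3 in ZsGreen+ cells and of Tbx21 in ZsGreen− cells were also each lost in at least 1 such fit. Of 49 calls over the 4 lists, 13 held with any library left out and 36 were lost in at least 1 such fit. Foxp3 is also counted among the regulatory T cell markers, and its exons overlap neighbouring genes.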

How the data were processed

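Bulk RNA-seq of sorted Tfh cells in 4 groups of 2 libraries. The authors' raw tables hold estimated counts (expected counts) per gene, as deposited, and 20.8% to 31.2% of a library's values were not whole (tolerance 0.01). The authors' normalized tables give a signal: the counts multiplied by 1 constant per library, with factors from 0.765 to 1.58. Partek, STAR, DESeq2 and build mm39 appear in the submitters' processing notes, and the sources used here give no versions. The labels name poly A enrichment, or a non-directional preparation for very small inputs, without saying which library had which. In a non-directional library, opposite-strand genes that overlap cannot be separated.

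The counts were rounded and analysed with edgeR 4.0.16 in R 4.3.3. Of 16735 genes in both tables, filterByExpr by group (minimum count 10, minimum total 15) kept 14418. Library sizes were scaled by TMM (factors 0.656 to 1.24), and log2 CPM used a prior count of 2. The quasi-likelihood model (robust) had a mean per group and a term for the experiment, with 3 residual degrees of freedom. The replicate number is the experiment: deviations from group means correlated between libraries of the same experiment (r between 0.825 and 0.867 in 6 group pairs). Standard errors were derived from the F statistic. The model was tested on simulated data, where false calls were more frequent than the threshold of 0.05 allows, so calls near it are the least secure.

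Alternatives were no experiment term, DESeq2 1.42.0 with the same terms, RLE scaling, no low-count filter, a minimum count of 50, only the groups compared, no robust dispersion, and each library left out. The authors' signal was used for the order of groups. The 7 members, the pathway lists (69 symbols, 68 in both tables, 66 tested) and the marker lists (55 symbols, 50 in both tables) were chosen with earlier results of these data known. Named genes were the members, every listed gene called (up to 8 per list and comparison, otherwise 4 per direction), and the 3 most alike genes, with a mean of at least 5 CPM, of each called member. The marker lists for γδ T cells and ILC, B, plasma, myeloid, epithelial, and stromal and erythroid cells summed to 45.4 to 310.2 CPM, 128 to 715 CPM (mostly Ighm), 72.9 to 276 CPM, 5.57 to 33.5 CPM, 2.25 to 16.2 CPM and 48.6 to 166 CPM over the 8 libraries. Tfh markers summed to 4056 to 24724 CPM. Promoters are from RefSeq (GRCm38.p6), and exon lengths and overlaps from GENCODE M21.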

Additional observations from a re-analysis of the deposited data

How the results depend on the processing

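Of 105 recomputed fold changes of the 7 called member results, 0 reversed and 15 no longer passed. Without the replicate block (no experiment term), 0 members and 0 of all genes were called in every comparison, with 111 to 568 genes at an unadjusted p under 0.05 outside the difference between tissues. The count for spleen ZsGreen+ over ZsGreen− cells, 2, became 0 without the replicate block, 4 with DESeq2, 3 with no low-count filter, 3 on the groups compared alone, 1 with RLE scaling, 1 without robust dispersion, and 1 to 3 with a library left out. Both Peyer's patch over spleen counts became 0 without the replicate block, and the ZsGreen+ count of 2 became 5 on the groups compared alone and 3 with no low-count filter, with 2 to 3 in ZsGreen+ and 2 to 4 in ZsGreen− cells when a library was left out. The Peyer's patch sort count became 1 on the groups compared alone, and stayed at 0 with any library left out. The difference between tissues gave 2 with DESeq2 and 0 to 1 with a library left out. Over all genes the counts moved too. In the spleen sort comparison 1243 became 1466 with DESeq2, 1330 with no low-count filter and 1315 on the groups compared alone. RLE scaling gave 1229 and no robust dispersion 1098. Peyer's patch over spleen in ZsGreen+ cells went from 1828 to 2224 on the groups compared alone and 1904 with no low-count filter. The Peyer's patch sort went from 63 to 119 on its groups alone, and the difference between tissues from 14 to 143 with DESeq2. For these changes the cause was not tested.

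All reversals were of fold changes that had not passed. With a library left out, the Peyer's patch sort gave −0.22 to 0.21 for Lag3, −0.21 to 0.52 for Tigit, −0.46 to 0.13 for Cd226 and −0.043 to 0.10 for Cd160. The difference between tissues gave −1.29 to 0.71 for Ctla4 and −0.81 to 6.79 for Havcr2. Peyer's patch over spleen gave −0.25 to 0.37 for Cd160 in ZsGreen+ cells and −0.61 to 0.24 for Lag3 in ZsGreen− cells, where Lag3 was 0.17 without the replicate block. A lone remaining library was assumed to vary like the other groups. On the authors' signal the order of the 4 groups was kept in 14 of 14 comparisons of a gene within an experiment. Low counts limit Havcr2, and 3 residual degrees of freedom limit every test of the main model. Fits on the groups compared alone or with a library left out have fewer.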
